A study of Mus musculus with 2 samples.

Results

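In 2 single-cell libraries of mouse pancreatic tumours, 78 of 24160 kept cells carried transcripts of the T cell receptor complex together with the interleukin-17 genes Il17a, Il23r or Cd163l1, and none of Cd8a, Cd8b1, Cd4 or Foxp3. They are called the selected cells here. A cell was kept with at least 500 genes, 1000 to 60000 unique molecular identifiers (UMIs, each the count of 1 captured transcript) and at most 15% of UMIs from mitochondrial genes. A kept cell was selected when Cd3e, Cd3d and Cd3g together had at least 1 UMI, Il17a, Il23r and Cd163l1 together had at least 2, Cd79a had at most 1, and S100a8 and S100a9 together made up under 0.4% of its UMIs. The tumours came from KPC cells, a line of mouse pancreatic cancer cells, placed in the pancreas of mice. One tumour was grown from KPC-shV cells, the control line, and the other from KPC-shZEB1 cells, a line made to knock down Zeb1. The study describes gemcitabine treatment of these mice, and the labels give no treatment beyond the injected line and no strain or age. The methods name C57BL/6J, BABL/c and NSG mice for the study as a whole. Each group is 1 library of 1 tumour, so the injected line, the mouse, the tumour and the library cannot be told apart, no value between them has a test, and every interval below covers counting error only.

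The selection took 26 of 11713 kept cells from KPC-shV and 52 of 12447 from KPC-shZEB1. The libraries shared 46 cell barcodes, and no selected cell had one of them. Among tumour-like cells, which had at least 10 UMIs over 10 epithelial and pancreatic tumour markers and none of Ptprc, Zeb1 was at 175 counts per 1000000 UMIs (CPM) in 520 KPC-shV cells (95% Poisson interval 168–183) and at 198 CPM in 353 KPC-shZEB1 cells (187–210). The ratio was 1.13 (1.05–1.22), so the library labelled KPC-shZEB1 did not have less Zeb1 in these cells. Tumour cells with few of the markers are not covered by it. The study reports a knockdown check in KPC cells and Zeb1 staining of tumours, which these counts do not repeat. No direction below is tied to the knockdown.

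Interleukin-17-producing T cells respond to interleukin-23 and interleukin-1 from myeloid cells without needing a new encounter with antigen, and they draw neutrophils through interleukin-17. In mice many of them are gamma-delta T cells, whose receptor is built from the delta genes (constant gene Trdc) and the gamma genes in place of the alpha gene Trac and the beta genes Trbc1 and Trbc2. They are made early in life, settle in barrier and connective tissues, and depend on transcription factors such as c-Maf and PLZF (Zbtb16). Invariant natural killer T cells, mucosal-associated invariant T cells and T helper 17 cells share much of this programme, and the delta genes lie inside the alpha locus, so a transcript of that region need not come from a finished receptor.

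The selected cells held 3503 to 14417 UMIs each in KPC-shV, with a median of 5219, and 2540 to 25378 in KPC-shZEB1, with a median of 5398. Together they gave 150084 UMIs in KPC-shV and 334251 in KPC-shZEB1, so 1 UMI stood for 6.66 and 2.99 CPM. The median cell had 2302 detected genes in KPC-shV and 2281 in KPC-shZEB1, with 1.74% and 1.97% of UMIs from mitochondrial genes. The Cd3 genes had a median of 7 and 6 UMIs per selected cell. The other cells that met the Cd3, Cd79a and S100a8 plus S100a9 conditions (other Cd3-positive cells) had a median of only 2 Cd3 UMIs in both libraries but 10213 and 8595 UMIs in all. With so few Cd3 UMIs a cell of another type can enter that class, so levels were compared mainly with the 349 and 1088 of them that had at least 3 Cd3 UMIs, called other T cells below, whose median depth was 6101 and 5544.5 UMIs. This minimum was not put on the selected cells, of which 26 and 45 reached it. Some KPC-shZEB1 selected cells were rich in macrophage or dendritic genes and stay in every ratio to other T cells. The 47 KPC-shZEB1 cells without them held 246130 UMIs.

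The 3 selecting genes were measured as follows, as a description of what the selection used. Il23r, the interleukin-23 receptor chain (ENSMUSG00000049093, mm10 chr6:67422932-67491855, minus strand), had UMIs in 24 of 26 selected cells in KPC-shV and 51 of 52 in KPC-shZEB1. Among the cells that had any, Il23r ran from 1 through a median of 9 to 30 UMIs in KPC-shV and from 1 through 6 to 40 in KPC-shZEB1. Nearly every cell was thus chosen in part on Il23r, and 11 cells in KPC-shV and 28 in KPC-shZEB1 were chosen on Il23r alone. Il17a, the interleukin-17A cytokine (ENSMUSG00000025929, chr1:20730905-20734496, plus strand), had UMIs in 11 and 19 selected cells, from 1 through a median of 9 to 169 UMIs in KPC-shV and from 1 through 3 to 43 in KPC-shZEB1. The highest KPC-shV cell held 169 of that library's 255 Il17a UMIs. Cd163l1, a scavenger receptor known from gamma-delta T cells (ENSMUSG00000025461, chr7:140218267-140231145, plus strand), had UMIs in 11 and 14 cells, from 1 through 5 to 14 and from 1 through 3 to 19. All 3 genes were found together in 5 and 9 cells. At the threshold, 1 KPC-shV cell and 3 KPC-shZEB1 cells had exactly 2 UMIs of the selecting genes, and Zbtb16 was detected in all of them. Just outside it, 11 and 37 cells that met the other conditions had 1 such UMI, with a median of 31331 and 19425 UMIs in all and of 1 Cd3 UMI, and Zbtb16 was detected in 3 and 8 of them.

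The label given to these cells, interleukin-17 gamma-delta T cells, was checked on receptor genes that the selection did not use. Trdc was detected in 11 of 26 selected cells in KPC-shV (42.3%, exact binomial interval 23.4–63.1) and in 18 of 52 in KPC-shZEB1 (34.6%, 22.0–49.1). It was detected in 6.88% of other T cells in KPC-shV and in 7.81% in KPC-shZEB1, and B cells, which should lack it, had it in 0 of 256 cells of KPC-shV, which by the limit of 3 counts allows 1.17% (exact upper limit 1.43%), and in 5 of 956 of KPC-shZEB1 (0.523%). After every cell was thinned to 1000 UMIs the shares were 30.8% and 17.3% in selected cells against 1.43% and 2.39% in other T cells. The delta gene was therefore enriched in the selected cells over both other T cells and the background in B cells, and yet 49 of the 78 selected cells had no Trdc UMI. Trdv4, a delta variable gene, was found in 6 and 12 cells, which is 23.1% in each library, against 2 of 349 and 8 of 1088 other T cells. Each of the 18 cells with Trdv4 also had Trdc. A gamma constant gene was detected in 73.1% and 53.8% of selected cells and in 18.3% and 17.8% of other T cells.

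The alpha-beta receptor genes were also present. Trac, the alpha constant gene, was detected in 10 and 21 selected cells (38.5% and 40.4%), below the 75.4% and 69.9% of other T cells. Trbc1 or Trbc2 was detected in 88.5% and 84.6% of selected cells, near the 94.3% and 94.2% of other T cells. They were found in 9 of 11 and 14 of 18 selected cells with a Trdc UMI and in 14 of 15 and 30 of 34 without. The beta genes thus separated these cells little. A gamma or delta receptor gene without any of Trac, Trbc1 and Trbc2 was seen in only 1 KPC-shV cell (3.85%, 0.0973–19.6) and 3 KPC-shZEB1 cells (5.77%), while 20 and 32 cells had both kinds and 4 and 14 had alpha-beta genes only. Over the 2 libraries 22 selected cells had Trdc without Trac, 24 had Trac without Trdc, 7 had both and 25 had neither. The receptor genes thus mark part of the selected cells as gamma-delta and leave the rest undecided, and the cells are named here by the genes that selected them. Cells with Trdc held a median of 4 and 5.5 UMIs of it. Those without Trdc were not shallower, with a median of 5596 and 5430.5 UMIs in all against 5147 and 5249.5. Why they lacked Trdc was not tested.

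Other interleukin-17-producing cells were looked for in the same way. The invariant natural killer T cell segment Traj18 was detected in 5 and 4 selected cells, and in 17.5% and 12.1% of other T cells. Traj33, a segment of mucosal-associated invariant T cells, was in 0 and 1 cell, and Trav1 and Trav11, the variable genes of those invariant receptors, had 0 UMIs. Klrb1c, the NK1.1 receptor, was detected in 0 and 1 cell, and Kit, a marker of innate lymphoid cells, in 0 and 4. In a 3-prime assay variable and joining segments far from the transcript end can be missed, so these counts limit detection and not the cells' receptors. Traj18 was not rare in other T cells, so a UMI of it was not taken to mark an invariant natural killer T cell. Which of these cell types the selected cells without Trdc are was not tested.

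**Figure D1:**
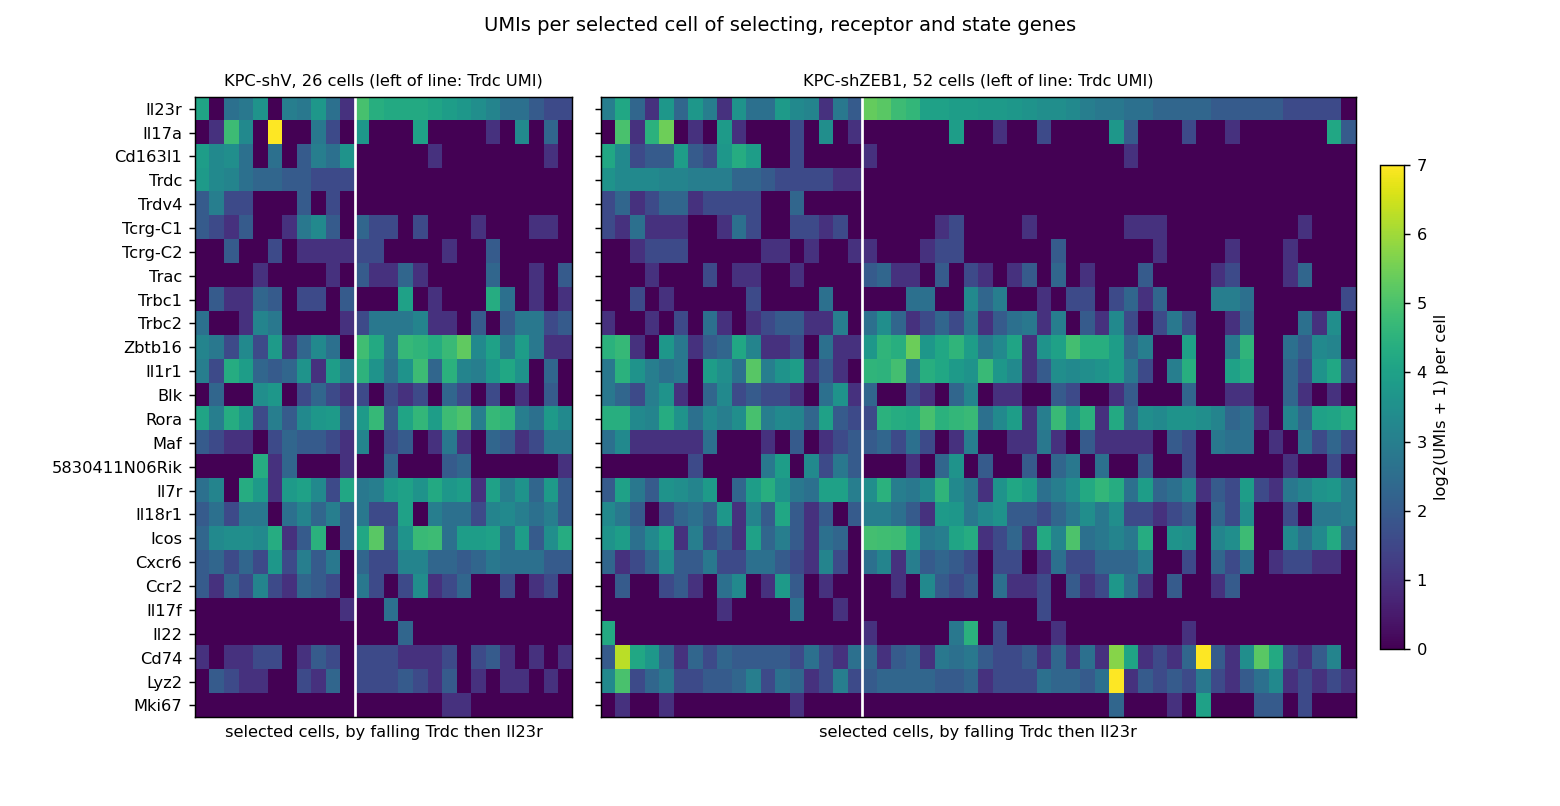
Each column is 1 selected cell and each row 1 gene, with colour for log2 of UMIs plus 1, KPC-shV with 26 cells on the left and KPC-shZEB1 with 52 on the right, cells ordered by falling Trdc and then Il23r. Left of the white line are the 11 and 18 cells with a Trdc UMI, and the rows of Zbtb16 and Il1r1 are filled on both sides of it.

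Zbtb16, Il1r1 and Blk, the given markers that took no part in the selection, were found in most cells. They were given for this cell type with earlier results of these data known, so their high levels are not an independent check of the label. Zbtb16 (PLZF), the factor of innate-like T cells, had UMIs in 25 of 26 cells in KPC-shV, from 1 through a median of 9 to 38, and in 43 of 52 in KPC-shZEB1, from 1 through 9 to 42. Its level was 1959 CPM in selected cells and 35.5 CPM in other T cells of KPC-shV, a ratio of 55.2 (43.9–69.9), and 1475 against 44.4 CPM in KPC-shZEB1, a ratio of 33.2 (29.0–38.0). Il1r1, the interleukin-1 receptor, had UMIs in 24 and 45 cells, from 1 through 9.5 to 27 and from 1 through 10 to 35, at 58.9 (45.6–76.8) and 34.3 (30.0–39.2) times its level in other T cells. Blk, a Src-family kinase of B cells and of interleukin-17 gamma-delta T cells, had UMIs in 16 and 33 cells at 115 (56.3–265) and 84.7 (57.8–127) times the level in other T cells. All 3 were detected together in 46 of the 78 cells and at least 1 of them in 73. The exceptions were 5 cells, all in KPC-shZEB1, with no UMI of Zbtb16, Il1r1, Blk or Trdc. B cells had Zbtb16 in 0.781% and 1.78% of cells and Il1r1 in 5.08% and 6.17%, but Blk in 56.3% and 58.7%.

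**Figure D2:**
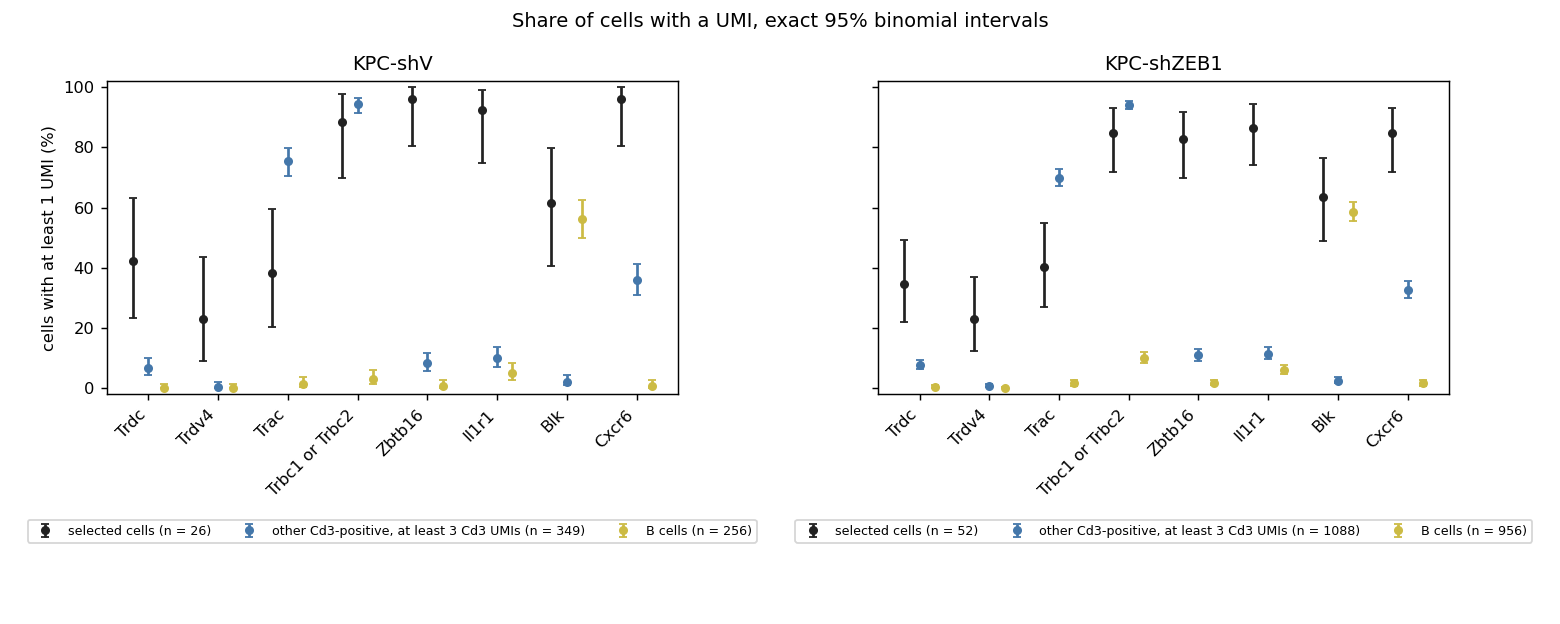
Points are the share of cells, in percent, with at least 1 UMI of each gene in selected cells, other T cells and B cells, with exact 95% binomial intervals, in each library. Zbtb16, Il1r1 and Trdc stood higher in selected cells than in both other classes, while Trac stood lower in selected cells than in other T cells.

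Across all genes, a gene was called higher or lower in selected cells than in other T cells when the ratio of summed CPM passed 2-fold in the same direction with its counting interval leaving out 1 in both libraries. Of 9962 genes with at least 20 UMIs, 258 (2.59%) were higher and 236 (2.37%) lower, and the median log2 ratio of all genes was -0.34 in KPC-shV and -0.29 in KPC-shZEB1. The other T cells include Cd8- and Cd4-positive cells, which the selection bars. Against the 124 and 429 of them that also had no Cd8, Cd4 or Foxp3 UMI (double-negative T cells below), 214 of 5796 genes (3.69%) were higher and 147 (2.54%) lower. Against all other Cd3-positive cells, by size alone, 681 of 14172 genes (4.81%) were higher and 3600 (25.4%) lower. By size alone against other T cells, 294 of 9962 genes (2.95%) were higher and 954 (9.58%) lower.

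The gamma-delta receptor genes were higher as a list, 5 of 6 tested, with none lower, against either comparator. Trdc itself was at 366 and 287 CPM in selected cells and at 34.8 and 30.9 CPM in other T cells, ratios of 10.5 (7.44–14.8) and 9.29 (7.29–11.8). Against double-negative T cells, of which 21 and 64 had a Trdc UMI, the ratios were 2.77 (1.95–3.91) and 4.05 (3.15–5.16). Tcrg-C1, the first gamma constant gene, was at 20.1 (12.7–32.1) and 11.9 (7.72–18.1) times the level in other T cells, and Tcrg-C2 at 3.43 and 3.00 times. Trac was lower than in other T cells at 0.433 (0.263–0.673) and 0.531 (0.380–0.723), but against double-negative T cells it was at 0.542 (0.323–0.864) and 0.888 (0.628–1.22), so its lower level was not seen in KPC-shZEB1 once the Cd8 and Cd4 cells were left out. Trbc1 was at 1.08 and 0.619 times and Trbc2 at 0.824 and 0.768 times the level in other T cells.

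Of the transcription factors of interleukin-17-producing lymphocytes, 7 of 14 tested were higher than in other T cells and none lower. The list was compiled from factors known in such cells, so its direction in part restates what the selection sought. The same 7 genes were higher against double-negative T cells, of 13 tested there. Among them were Zbtb16, Rora, Maf, Irf4, Runx1 and Ikzf3. Rora, a nuclear receptor, was at 3.18 and 3.06 times the level in other T cells, and Maf, the c-Maf factor, at 2.57 and 2.35 times. Sox13, an early factor of this lineage, had 4 and 8 UMIs in all.

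Factors of other T cell lineages went the other way or did not pass, with 0 of 14 higher and 3 lower. Ikzf2 (Helios), a factor of regulatory and some innate-like T cells, was at 213 and 251 CPM in selected cells against 1722 and 1402 CPM in other T cells, ratios of 0.124 and 0.179. Klf2, which keeps T cells in circulation, was at 0.293 and 0.436 times, and Lef1, a factor of naive T cells, at 0.409 and 0.0955 times. Against double-negative T cells these 3 and Eomes were lower, and Bcl11b, a T cell identity factor, was higher at 2.03 and 2.05 times.

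Among secreted factors, few interleukin-17 cytokines beyond Il17a were caught. Il17f, the partner of Il17a, had 6 UMIs in 2 cells and 9 UMIs in 4 cells. Il22, which acts on epithelium, had 4 UMIs in 1 cell and 50 UMIs in 7 cells. Of 15 cytokine genes tested 2 were higher than in other T cells and 3 lower. The higher ones were Lif, an interleukin-6 family cytokine, at 9.94 (6.06–16.0) and 6.65 (4.76–9.13) times, and Tnf at 2.55 (1.74–3.64) and 2.41 (1.86–3.09) times. The lower ones were Ifng, Csf1 and Tnfsf8, and of these only Tnfsf8 was called lower against double-negative T cells. Ifng, the type-1 cytokine, had 1 UMI in each library against 142 and 137 CPM in other T cells, but double-negative T cells had only 38.8 and 54.4 CPM and the difference from them was not called. Tnfsf11 (RANKL) was at 1.74 and 1.71 times the level in other T cells and at 3.03 (1.91–4.76) and 3.41 (2.60–4.43) times that in double-negative T cells, where it was called higher. One KPC-shV cell held 19 of the 34 UMIs of Tnfsf11 there, and without it the ratio to double-negative T cells was 1.41 (0.736–2.54).

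Of 22 cytokine receptors 6 were higher than in other T cells and 4 lower. The higher ones beside Il1r1 were Il7r, the receptor for the survival cytokine interleukin-7, at 5.37 and 3.89 times, Il2ra (CD25) at 5.74 and 7.03 times, Il18r1 at 3.75 and 3.31 times, the death-receptor family member Tnfrsf25 at 4.47 and 3.68 times, and Ifngr2 at 4.13 and 2.61 times. Among the lower ones, Il12rb2, which carries the interleukin-12 signal of type-1 cells, had 1 and 13 UMIs against 257 and 231 CPM in other T cells. Il1rl1, the interleukin-33 receptor, had 0 UMIs in both libraries against 61.9 and 47.1 CPM. Il21r was at 0.196 and 0.456 times and Il6st at 0.240 and 0.349 times. Tnfrsf25 and Il21r were not called against double-negative T cells.

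Genes of homing and tissue residency showed a resident-type set, with 5 of 23 higher and 3 lower. Cxcr6, the receptor for Cxcl16, was detected in 25 of 26 and 44 of 52 selected cells, at 740 and 446 CPM against 140 and 110 CPM in other T cells. The ratios were 5.29 (4.25–6.54) and 4.07 (3.40–4.84), and against double-negative T cells 10.3 (7.31–14.7) and 8.24 (6.58–10.3). Ccr2, a receptor for inflammatory chemokines, was at 6.99 and 6.09 times, Cd69, which holds T cells in tissue, at 6.78 and 4.83 times, Ramp1, a subunit of the receptor for the nerve peptide CGRP, at 10.5 and 8.17 times, and Itgb7 at 2.68 and 2.13 times. Itga1, an integrin chain that binds collagen, was among the lower genes, with 0 and 3 UMIs. Itgb7 was not called against double-negative T cells. Ccr6, often used to mark interleukin-17 cells, had 5 UMIs in 3 cells and 13 UMIs in 9 cells, ratios of 2.52 (0.775–6.42) and 3.34 (1.72–5.97), which did not pass in both libraries.

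Genes of cytotoxic cells and natural killer receptors were low, with 0 of 15 higher and 7 lower. Nkg7, a protein of cytotoxic granules, had 1 and 17 UMIs against 834 and 617 CPM in other T cells. Gzma (granzyme A) had 0 and 1 UMI against 491 and 250 CPM, Prf1 (perforin) had 0 in both against 85.5 and 82.3 CPM, and Klrd1 (CD94) had 1 and 2 against 247 and 163 CPM. Against double-negative T cells 8 of 9 genes were lower, among them Nkg7 at 0.0126 and 0.161 times and Klrd1 at 0.0294 and 0.0474 times. Gzma was at only 21.5 and 24.7 CPM in double-negative T cells and was not called there. Xcl1, a chemokine of CD8 and natural killer cells, had 0 and 1 UMI against 669 and 178 CPM in double-negative T cells.

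Of 17 checkpoint and costimulatory genes 2 were higher and 7 lower. Icos, a costimulatory receptor, was at 2052 and 1427 CPM, 4.83 and 3.55 times the level in other T cells, and Ctla4 was at 2.09 and 2.29 times. Pdcd1 (PD-1) was at 2.60 and 1.80 times the level in other T cells and at 7.78 and 7.61 times that in double-negative T cells, where it was called higher. Lag3 was at 0 and 0.304 times, Tigit at 0 and 0.260 times, Havcr2 (Tim-3) at 0.207 and 0.216 times, and Tnfrsf9 (4-1BB) at 0.142 and 0.291 times the level in other T cells. These 4 and Tnfrsf4 (OX40) were not called against double-negative T cells, whereas Cd27, at 0.243 and 0.318 times the level in other T cells, and Tnfrsf18 (GITR) were lower against both. The signalling molecules Cd2, Cd5 and Cd28 were lower than in other T cells, at 0.155 to 0.352 times.

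A list of scavenger receptors and other genes known from interleukin-17 gamma-delta T cells, other than the selecting gene Cd163l1, had 11 of 18 higher and 1 lower. It was compiled from genes known in such cells, so its direction restates what the selection sought. The scavenger-receptor gene 5830411N06Rik (Scart2) was at 247 and 260 CPM, 59.1 (30.1–124) and 93.9 (59.6–153) times the level in other T cells. One KPC-shV cell held 19 of its 37 UMIs there, and without it the ratio was 29.97 (13.7–68.2). Pxdc1 was at 17.4 and 16.5 times, the protease inhibitor Serpinb1a at 19.9 and 7.71 times, the leukotriene B4 receptor Ltb4r1 at 13.2 and 6.89 times, the potassium channel Kcnk1 at 16.4 and 3.86 times, the muscle-type actinin Actn2 at 7.14 and 9.57 times, and the paired membrane proteins Tmem176a and Tmem176b at 9.23 and 4.81 and at 7.93 and 4.52 times. Ly6c2, a surface protein of memory CD8 T cells and monocytes, was the lower gene, with 0 and 1 UMI against 190 and 122 CPM. Kcnk1 was not called against double-negative T cells.

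State genes differed less. Of 20 early activation genes 4 were higher and 0 lower, Nfkbid (an NF-κB cofactor) at 4.50 and 2.62 times, the orphan receptors Nr4a1 at 3.92 and 3.04 and Nr4a3 at 3.42 and 2.31 times, and the NF-κB brake Tnfaip3 at 2.41 and 2.28 times. In glycolysis, 2 of 21 were higher, the entry enzymes Hk2 at 2.06 and 2.17 times and Pfkp at 2.40 and 2.11 times, and 0 lower. Dgat1, which makes triglycerides, was the 1 higher gene of 15 in lipid handling, at 1606 and 1047 CPM and 5.55 and 4.12 times. Survival genes had 3 of 11 higher, Bcl2a1b at 2.31 and 2.69, Bcl2a1d at 2.99 and 2.77 and the kinase Pim1 at 3.46 and 2.89 times. None of 14 genes of oxidative phosphorylation, 11 of MHC class I or 9 of heat shock passed in either direction. Cell cycle genes had 0 of 18 higher and 5 lower, Mcm6, Pcna, Rrm2, Stmn1 and Tyms, and of these Pcna was at 0.157 and 0.431 times. Against double-negative T cells 7 cell cycle genes were tested and only 2, Mcm6 and Stmn1, were lower. Tnfaip3 was not called there, and the other state genes named as higher were higher there too.

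The genes that stood highest in selected cells over all other Cd3-positive cells, by a fixed ranking without the selecting genes, included several outside these lists. Pde5a, which breaks down cyclic GMP, was at 633 and 392 CPM against 8.69 and 12.6 CPM in other T cells. Ret, the receptor tyrosine kinase for GDNF ligands, was at 127 and 105 CPM against 1.39 and 2.33 CPM. Ppp1r14c, a phosphatase inhibitor, was at 213 and 221 CPM against 3.13 and 2.77 CPM, and Cdh10, a cadherin, at 320 and 138 CPM against 0 and 2.11 CPM. Ablim3, an actin-binding protein, was at 300 and 428 CPM, 15.68 and 20.003 times, the potassium channel subunit Kcnmb4 at 12.1 and 15.6 times, and Krt83, a keratin, at 10.14 and 14.02 times. 4930447N08Rik was at 79.96 and 71.8 CPM and Fstl4, a follistatin-like protein, at 73.3 and 147 CPM. The other 6 of the 15 were Trdc, Trdv4, Blk, Zbtb16, Actn2 and 5830411N06Rik. The 10 lowest were Sulf1, Fbn2, Clmp, Mmp3, Meis1, Epha2, Gdf15, Cmtm4, Med19 and Col14a1, with 0 UMIs in selected cells of both libraries except 1 UMI of Col14a1 in KPC-shZEB1. Sulf1, Fbn2, Mmp3 and Col14a1 are genes of connective tissue and its matrix, and Epha2 is an epithelial receptor.

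**Figure D3:**
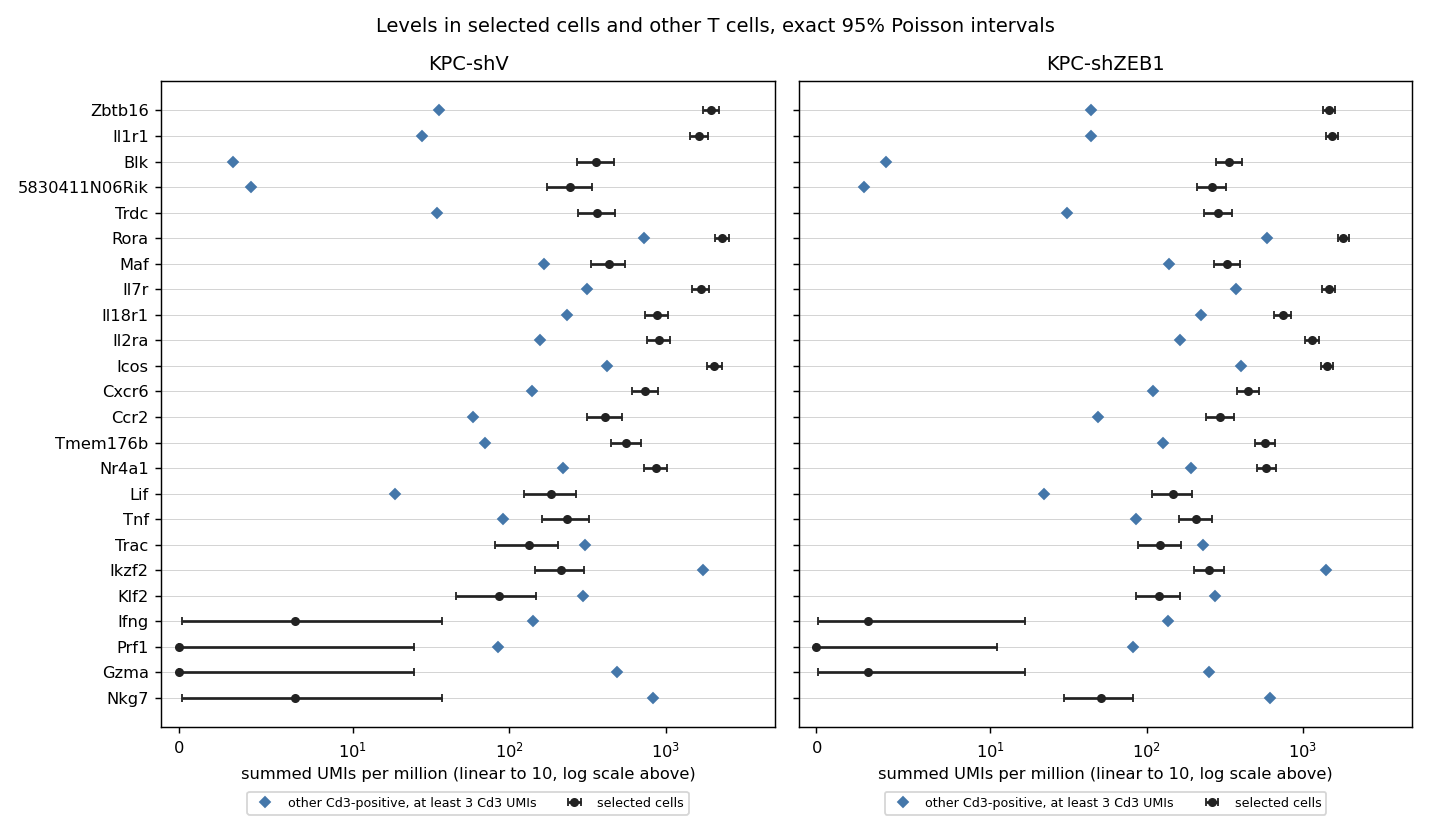
Summed UMIs per 1000000 of each gene in selected cells (circles with exact 95% Poisson intervals) and in other T cells (diamonds), in each library, on an axis that is linear to 10 and logarithmic above. Zbtb16, Il1r1, Cxcr6 and Icos lie far to the right of their diamonds in both libraries, and Nkg7 and Gzma far to the left.

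Among all Trdc-positive T cells, those selected on the interleukin-17 genes were set apart from the rest. The 11 and 18 selected cells with a Trdc UMI were compared with the 24 and 85 other T cells that had one, which, unlike the selected cells, could also carry Cd8 or Cd4. Nkg7 was detected in 1 of 11 and 1 of 18 of the former and in 22 of 24 and 69 of 85 of the latter, at 15.4 and 9.46 CPM against 931 and 488 CPM. Klrd1 was in 0 and 0 cells against 13 and 55, Xcl1 in 0 and 0 against 14 and 31, and Ly6c2 in 0 and 1 against 16 and 50. Cd27, whose loss marks interleukin-17-producing gamma-delta T cells, was in 0 and 2 cells against 15 and 44. These genes of cytotoxic and circulating T cells were thus found in few of the selected cells with Trdc. Tbx21 (T-bet), the type-1 factor, was in 3 of 11 and 2 of 18 selected cells against 15 and 39 of the others. In the other direction, Il1r1 was in 11 of 11 and 16 of 18 selected cells against 0 of 24 and 9 of 85, and Zbtb16 was in 10 and 16 against 5 and 21. Cxcr6 was in 10 and 17 against 2 and 15, at ratios of 42.0 (13.5–211) and 13.9 (8.80–22.3). Trdv4 was in 6 and 12 selected cells against 1 and 5 of the others, and Icos stood at 16.6 and 7.42 times their level.

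Within the selected cells, those with a Trdc UMI were compared with those without, a split made after the data had been seen. Median depth was 5147 UMIs with and 5596 without in KPC-shV, and 5249.5 and 5430.5 in KPC-shZEB1. Of 1494 genes with at least 20 UMIs in each library, Trdc left out, 23 (1.54%) were over 2-fold higher in both libraries with Trdc and 28 (1.87%) lower. A gamma constant gene was in 10 of 11 and 16 of 18 cells with Trdc and in 9 of 15 and 12 of 34 without. Trac was in 2 of 11 and 5 of 18 cells with Trdc and in 8 of 15 and 16 of 34 without. In KPC-shZEB1 the cells without Trdc include 4 of the 5 cells rich in antigen-presenting genes that are set out with the comparison of libraries, while KPC-shV has no such cell. The innate-like markers were on both sides, with Zbtb16 in 10 and 16 cells with Trdc and 15 and 27 without, and Il1r1 in 11 and 16 and in 13 and 29.

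Of the selecting genes, Cd163l1 lay almost wholly in the cells with Trdc, at 69 UMIs against 2 in KPC-shV and 100 against 2 in KPC-shZEB1, and 21 of the 25 cells with Cd163l1 had Trdc. Il17a was at 6.86 (4.89–9.83) and 4.87 (3.52–6.82) times its level in cells without Trdc, though it was detected in 6 and 10 cells with Trdc and in 5 and 9 without. In KPC-shV 1 cell with Trdc held 169 of the 214 Il17a UMIs, and without it the ratio there was 1.60 (1.03–2.51), under 2-fold. Tcrg-C1 was at 2.83 and 7.02 times, the PI3-kinase adaptor Pik3ap1 at 14.4 and 3.86 times, the polarity protein Pard3 at 3.25 and 4.41 times, Blk at 2.42 (1.35–4.48) and 3.65 (2.46–5.48) times, its relative Lyn at 2.63 and 2.52 times, the receptor chain Cd247 at 2.63 (1.61–4.38) and 2.44 (1.78–3.36) times, Pdcd1 at 2.28 and 3.66 times and Ptgs2, the prostaglandin synthase COX-2, at 2.26 and 2.32 times.

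The cells without Trdc held nearly all Cd40lg, the CD40 ligand through which helper T cells act on B cells and dendritic cells, with 49 UMIs against 1 in KPC-shV and 77 against 0 in KPC-shZEB1. In the cells with Trdc, the chromatin organizer Satb1 was at 0.301 (0.224–0.399) and 0.357 (0.282–0.449) times the level in those without, the aryl hydrocarbon receptor Ahr at 0.197 and 0.336 times, the kinase Prkch at 0.0973 and 0.116 times, the prostaglandin E2 receptor Ptger4 at 0.0525 and 0.332 times and Kcnmb4 at 0.0438 and 0.196 times. Il22 was in 8 selected cells, 7 of them without Trdc. These genes were picked for their size in both libraries after the split had been made, and of the 5 checkpoint and costimulatory genes tested 1 was over 2-fold higher with Trdc and 0 lower.

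**Figure D4:**
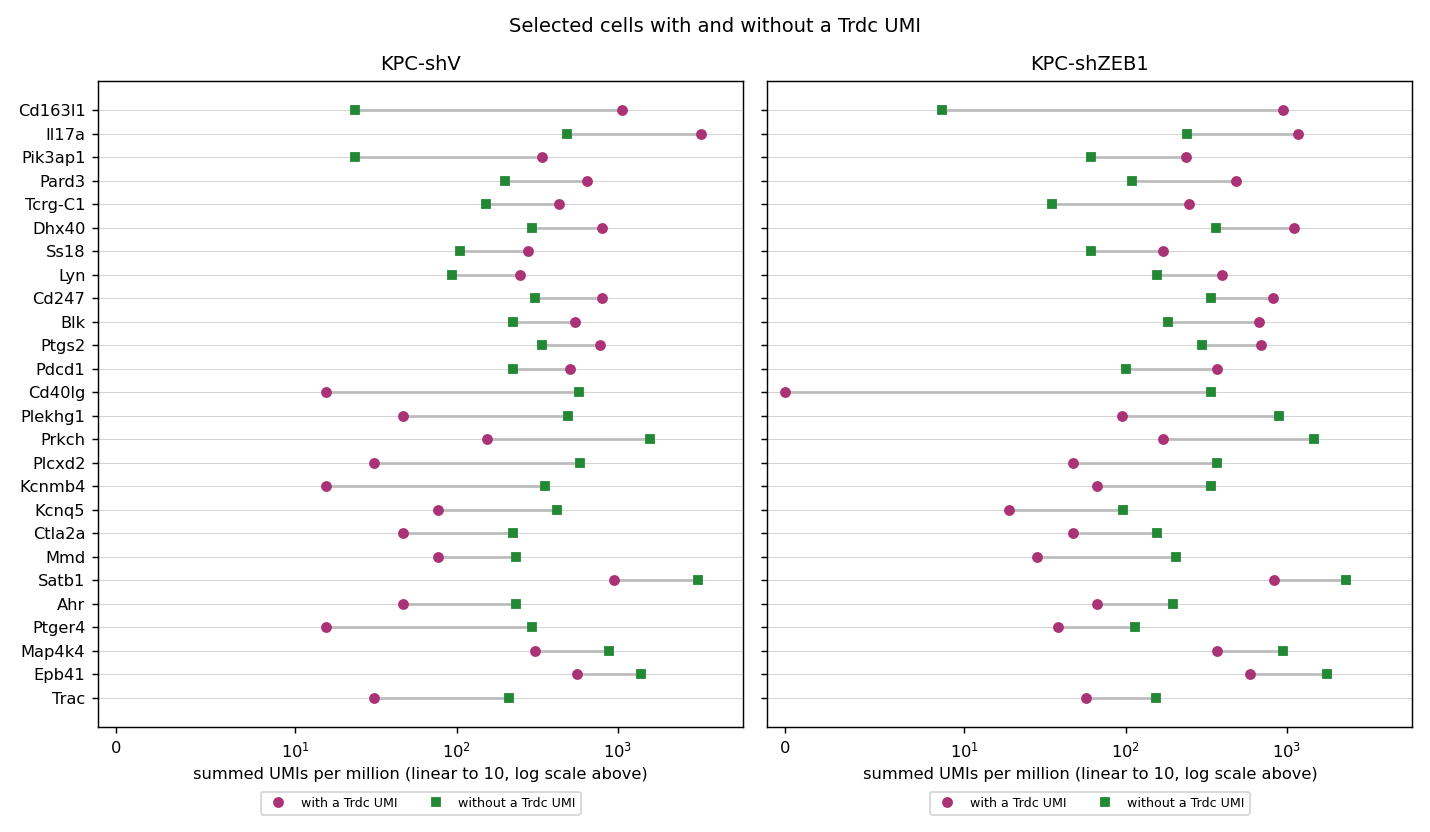
For each gene, summed UMIs per 1000000 in selected cells with a Trdc UMI (circles, 11 and 18 cells) and without (squares, 15 and 34 cells), in each library, on an axis linear to 10 and logarithmic above. Circles lie to the right for Cd163l1, Il17a and Blk and to the left for Cd40lg, Satb1 and Ahr in both libraries.

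The share of selected cells differed between the libraries in a way that turned on the denominator. They made up 0.222% of kept cells in KPC-shV (0.145–0.325) and 0.418% in KPC-shZEB1 (0.312–0.547), a ratio of 1.88 (1.15–3.14). Over cells with S100a8 and S100a9 under 0.4% of UMIs, 6205 and 9670 cells, which leaves out most neutrophils, the shares were 0.419% and 0.538% and the ratio 1.28 (0.787–2.14). Of Cd3-positive cells they were 26 of 844 (3.08%) and 52 of 2613 (1.99%), a ratio of 0.646 (0.396–1.08). With at least 3 Cd3 UMIs required they were 26 of 375 (6.93%) and 45 of 1133 (3.97%), a ratio of 0.573 (0.346–0.967). Over kept cells the ratios of Cd8-positive, Cd4-positive and Foxp3-positive T cells were 3.51 (2.86–4.32), 3.09 (2.48–3.88) and 2.91 (1.93–4.52), so the other T cell classes stood higher in KPC-shZEB1 by larger ratios than the selected cells did. The selected cells with Trdc had a ratio over kept cells of 1.54 (0.689–3.61), and those without one of 2.13 (1.13–4.21).

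Before levels are compared between libraries, 5 selected cells of KPC-shZEB1 have to be set out, since at least 1% of their UMIs came from 19 genes of macrophages and dendritic cells. This limit was set after the data had been seen, and no KPC-shV cell reached it. In 3 of them, with 7501, 16319 and 20643 UMIs, the Cd3 genes had 1 UMI, Il23r had 3, 3 and 4, and Zbtb16, Il1r1, Blk and Trdc had none. The same 3 cells had 26, 33 and 26 UMIs of Ccr7 and 18, 55 and 18 of Fscn1, both genes of migratory dendritic cells, and 7, 3 and 5 of Flt3. The other 2, with 18280 and 25378 UMIs, had 25 and 14 UMIs of Zbtb16 and 11 and 9 of the Cd3 genes, beside 31 and 131 of the macrophage gene Lyz2. Of all genes with at least 20 UMIs over both libraries, 468 of 4076 (11.5%) were over 2-fold higher in KPC-shZEB1 and 169 (4.15%) lower. Without the 5 cells 226 of 3448 (6.55%) were higher and 131 (3.80%) lower.

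The macrophage list summed to 733 CPM in selected cells of KPC-shV and 4209 CPM in those of KPC-shZEB1, or 2560 CPM without the 5 cells, and to 1305 and 4347 CPM in other T cells. The dendritic list summed to 147 and 1376 CPM, or 362 CPM without them. Of the 8 genes highest in KPC-shZEB1 by the fixed ranking, Ccr7, Fscn1, Adgrg6, Mreg, Ccl22, Edil3, Tbc1d4 and Gnb4, most rested on those cells. Fscn1 was at 42.2 times its KPC-shV level with them and at 1.83 (0.147–96.0) without, and Ccr7 went from 93 UMIs in 10 cells to 8 in 7 cells, with 0 in KPC-shV. Edil3, a matrix protein, kept its difference at 40.9 (7.09–1637) without them. It had 67 UMIs in 11 such KPC-shZEB1 cells, of which 1 cell held 29, against 1 UMI in KPC-shV. The acinar genes Try4, Try5 and Ctrb1 were higher in KPC-shZEB1 in selected cells and also in other T cells, where they went from 3.13 to 63.9, from 6.95 to 51.8 and from 20.2 to 142 CPM. The part of macrophage, dendritic and acinar RNA in the higher genes was not tested.

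Most genes of the interleukin-17 programme differed by less than 2-fold between the libraries. Without the 5 cells the KPC-shZEB1 over KPC-shV ratio was 0.942 (0.811–1.09) for Zbtb16, 1.17 (1.01–1.38) for Il1r1, 1.22 (0.872–1.72) for Blk, 0.983 for Rora, 0.919 for Maf, 1.08 for Il7r and 0.901 (0.778–1.04) for Icos. The 12 tested interleukin-17 factors had a median log2 ratio of 0.01, and 6 of them were higher. Of the selecting genes, Il23r was at 1.03 (0.882–1.21), Cd163l1 at 0.799 (0.580–1.10) and Il17a at 0.325 (0.262–0.402). The same threshold on these genes chose the cells in both libraries, so similar levels of them are in part set by the selection. With the highest cell of each library left out, Il17a was at 599 and 413 CPM over all selected cells, a ratio of 0.689 (0.522–0.913), so its difference rested largely on 1 KPC-shV cell. Without that cell and the 5 cells the ratio was 0.922 (0.699–1.22).

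Csf2 (GM-CSF), the cytokine that activates macrophages and neutrophils, was first among the 8 genes ranked lowest in KPC-shZEB1, a ranking with 10 CPM added and minimums on UMIs and cells. It had 43 UMIs in 8 of 26 selected cells of KPC-shV, at 287 CPM, and 5 UMIs in 5 of 52 cells of KPC-shZEB1, at 14.96 CPM. The ratio was 0.0522 (0.0161–0.132), and 0.0567 (0.0148–0.156) without the 5 cells. One KPC-shV cell held 20 of the 43 UMIs, and with it also left out the ratio was 0.101 (0.0255–0.297). Other T cells went from 95.6 to 27.2 CPM, a ratio of 0.284 (0.238–0.339), so the direction was shared. Selected cells thus stood above other T cells in KPC-shV, at 3.00 (2.12–4.14) times, and not in KPC-shZEB1, at 0.551 (0.177–1.30) times, a contrast that was not tested. Without the cell that held 20 UMIs the KPC-shV ratio was 1.68 (1.04–2.57). Tbx21 was also lower in KPC-shZEB1, at 0.150 (0.0426–0.433), or 0.203 (0.0578–0.588) without the 5 cells, against 0.754 in other T cells. Hmga2, Hs6st2, Cadm1, Auts2, Rbpms and Mecom made up the rest of the 8 lowest, and in KPC-shV 1 cell held 52 of the 56 Hmga2 UMIs, 1 cell 21 of the 27 Mecom UMIs and 1 cell 12 of the 19 Cadm1 UMIs.

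Early response genes were mostly lower in KPC-shZEB1, 14 of 19 without the 5 cells with a median log2 ratio of -0.23, against -0.05 for the same genes in other T cells. Cd69 was at 0.594 (0.485–0.729) without them, the phosphatase Dusp2 at 0.244 (0.121–0.465) and Nfkbid at 0.645 (0.499–0.835). In other T cells the same 3 were at 0.687, 0.806 and 0.920. Cxcr6 was at 0.603 (0.468–0.778) in all selected cells, at 0.786 (0.609–1.02) without the 5 and at 0.784 (0.698–0.883) in other T cells.

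Interferon response genes were higher in KPC-shZEB1, 13 of 13 tested with a median log2 ratio of 0.83, and 11 of 12 with a median of 0.89 without the 5 cells, against a median of 0.02 over all genes. In other T cells 10 of the same 12 were higher, with a median of 0.29. Gbp2, an interferon-induced GTPase, was at 4.57 (2.18–11.1) without the 5 cells and at 2.61 (2.21–3.11) in other T cells. MHC class I genes were higher in 8 of 10, with a median of 0.28 against -0.05 in other T cells, among them B2m at 1.30 (1.08–1.56) and H2-Q7 at 1.56 (1.16–2.11). Il2ra was at 1.55 (1.26–1.90), against 1.03 in other T cells, and cytokine receptors were higher in 13 of 14 with a median of 0.21, or in 8 of 16 with a median of 0.06 when the 5 cells are kept. Il22 was at 7.62 (2.80–29.1), from 1 cell in KPC-shV with 4 UMIs. In KPC-shZEB1 1 cell held 21 of its UMIs and another held 18, so the ratio rested largely on few cells. Glycolysis genes had a median of 0.31 with 13 of 16 higher, against -0.01 in other T cells, with Aldoa at 2.12 (1.22–3.87) and Egln3, an oxygen-sensing hydroxylase, at 2.90 (1.33–7.19). With the 5 cells kept the median was 0.67 with 13 of 17 higher. Under looser cell filters, which selected 27 cells in KPC-shV and 52 in KPC-shZEB1, it was -0.01 with 8 of 17 higher, so the direction was lost, and with 1 selecting UMI 11 of 20 were higher with a median of 0.05.

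**Figure D5:**
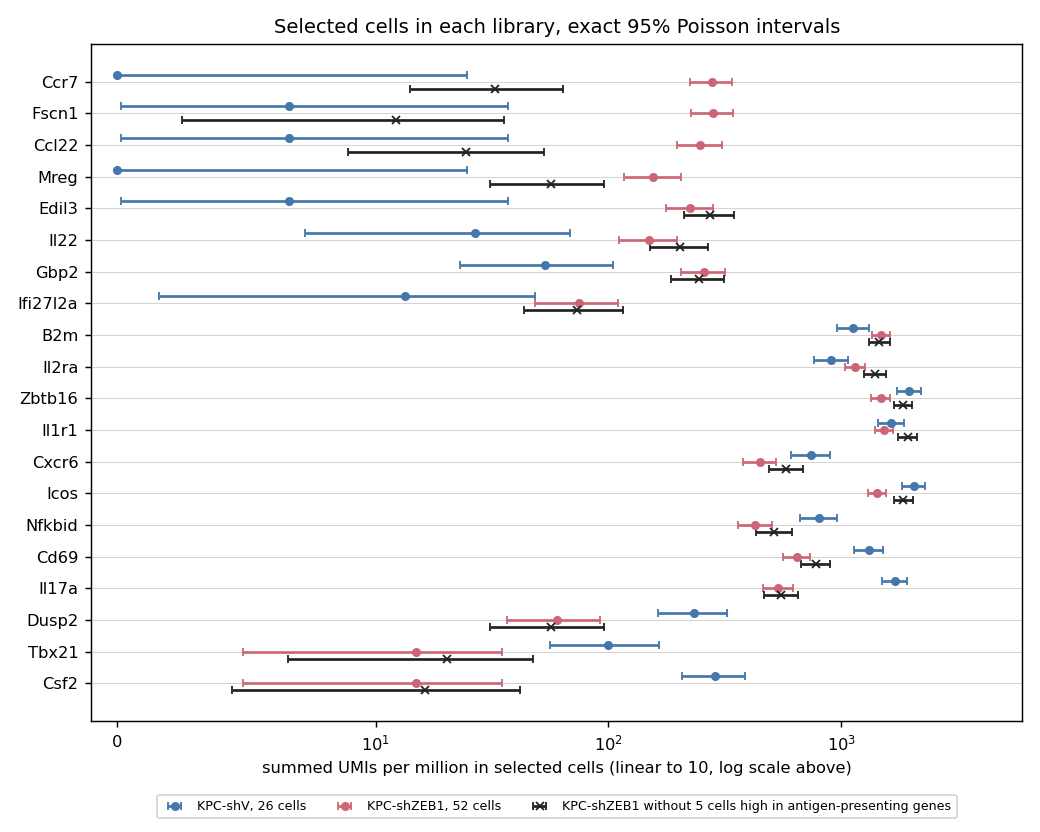
Summed UMIs per 1000000 in selected cells of KPC-shV (26 cells), of KPC-shZEB1 (52 cells) and of KPC-shZEB1 without the 5 cells rich in antigen-presenting genes, with exact 95% Poisson intervals, on an axis linear to 10 and logarithmic above. Csf2, Tbx21 and Dusp2 are lower in KPC-shZEB1 with or without the 5 cells and Gbp2 is higher, while the intervals of Zbtb16 and Icos overlap once the 5 cells are left out.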

How the data were processed

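Each library was made with the 10x Genomics 3-prime v3.1 kit from a tumour digested with collagenase and trypsin. The deposited values are raw UMI counts per gene and cell barcode, made by the authors with Cell Ranger 7.0.1 on mm10, per the labels and methods. Whether reads in introns were counted is not given in the sources used here. Cell filters follow the study's methods, except that doublets were scored (Scrublet in scanpy 1.11.5, score above 0.2) and not removed, which touched 1 and 2 selected cells. Both matrices were read in Python 3.11.15 with scipy 1.17.1. UMIs were summed over the cells of a class in each library and scaled to 1000000 (CPM), with exact 95% Poisson intervals, exact conditional binomial intervals for ratios and Clopper-Pearson intervals for shares. Log2 ratios have 1 CPM added. With 1 library per group there is no test between groups. The scripts were tested on simulated counts.

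The members and all 35 gene lists (423 genes) were chosen with earlier results of these data known. Genes outside the lists were named by rank of the smaller log2 ratio of the 2 libraries against other Cd3-positive cells, the 15 highest and 10 lowest with UMIs in at least 10% of cells of the higher class, and between libraries the 8 highest and 8 lowest with 10 CPM added and at least 5 cells with a UMI. Genes of the Trdc split, the comparators with 3 Cd3 UMIs and the limit on antigen-presenting UMIs were chosen after the data had been seen. Alternatives covered the selection threshold, Cd3 minimum, doublets, thinning to 1000 UMIs, cell filters, comparator, scaling and gene minimum. Gene positions come from GENCODE vM21, and all named genes were matched. Some genes that were measured are not reported here.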

Additional observations from a re-analysis of the deposited data

How the results depend on the processing

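No paired analysis was possible because each group is 1 library. Of 149 alternative values over 18 results, 113 kept their direction and their side of the limit used, and the cause of the rest was not tested except where fewer cells or genes enter by construction. The ratio of the share of kept cells, 1.88, stood at 1.70 to 2.26 under 5 alternatives, but its interval included 1 with at least 3 Cd3 UMIs (1.63), after thinning (1.75), with Trdc required (1.54) and over cells low in S100a8 and S100a9 (1.28). The ratio of the share of Cd3-positive cells, 0.646, left out 1 with at least 3 Cd3 UMIs (0.573) and without the 5 cells rich in antigen-presenting genes (0.585). After thinning, 3 of 14 and 5 of 26 selected cells (21.4% and 19.2%) had gamma-delta receptor genes only, against 1 of 26 and 3 of 52 before. The selection was applied again to the thinned counts, where alpha-beta UMIs are lost too, so this is not a rise in gamma-delta cells. Genes higher in selected cells over other Cd3-positive cells numbered 162 with 1 selecting UMI, 308 with at least 3 Cd3 UMIs in both classes, 294 with them in the comparator, 426 by the mean over cells and 1495 scaled to the median ratio, 258 with the interval added and 214 against double-negative T cells. The lower ones numbered 621, 1104, 954 and, scaled to the median ratio, 1958, with 10 CPM added 1039, and with the interval 236 and 147. Genes higher between libraries numbered 870 with 1 selecting UMI, 185 with Trdc required, 226 without the 5 cells, 173 with at least 50 UMIs and 4404 with no minimum, and the lower ones 546, 484 under looser cell filters, 110, 34 at 50 UMIs and 2024. The cell cycle list turned from 2.05 to -0.80 with at least 3 Cd3 UMIs, -0.54 with Trdc and -0.84 without the 5 cells, on few genes. The glycolysis list fell from 0.67 to -0.01 under looser cell filters, which add 1 KPC-shV cell, and to 0.05 with 1 selecting UMI. Without the KPC-shV cell with most of its UMIs, Tnfsf11 over double-negative T cells fell to 1.41 with an interval that includes 1, an alternative chosen after seeing the data like those without the 5 cells. The interferon list stood at 0.51 to 1.45 under all 10 alternatives. With 78 cells, 1 UMI was 6.66 and 2.99 CPM, so by the limit of 3 counts a gene with 0 UMIs could still be at up to 19.99 and 8.98 CPM.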

Other observations

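Il22 was carried by 8 selected cells, of which 3 also had Il17a. Ccl5, a chemokine of effector T cells, had 6 UMIs in KPC-shV and 171 in KPC-shZEB1, where 1 cell held 123. Mki67, a gene of dividing cells, had 2 and 31 UMIs, and 5 in KPC-shZEB1 without the 5 cells rich in antigen-presenting genes. Tcrg-V6, the gamma variable gene of a fetal-derived interleukin-17 lineage, had 4 UMIs in KPC-shV and 0 in KPC-shZEB1. Tcrg-C1 was at 0.491 (0.301–0.796) times its KPC-shV level in KPC-shZEB1 without the 5 cells, and at 0.629 in other T cells. Ifi27l2a, an interferon-induced gene, was at 5.49 (1.31–48.8) times in selected cells and at 0.706 in other T cells, a difference that was not tested.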
